A study of Mus musculus with 6 samples.

Results

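The genes described here are the mouse clustered histone genes, the copies that lie in gene arrays and carry symbols beginning with Hist1h, Hist2h, Hist3h or Hist4h followed by a histone type. Of the 31053 genes listed in the files, 67 symbols matched that pattern, and the 35 that reached at least 5 UMIs per 1000000 UMIs (counts per 1000000, CPM) in at least 1 of 6 libraries were taken as members. They comprised 5 of 6 H1 symbols, 10 of 18 H2A, 9 of 18 H2B, 7 of 12 H3 and 4 of 13 H4. On the mm10 build 30 members lay on chromosome 13, 3 on chromosome 3 and 2 on chromosome 11. Just inside the limit were Hist1h2bn at a highest value of 5.23 CPM, Hist1h2bk at 5.48, Hist1h2af at 6.27 and Hist1h2ak at 6.395. Just outside were Hist1h4a at 4.89, Hist1h2bh at 4.82, Hist2h4 at 4.70 and Hist1h2ag at 4.59, and 10 of the 32 symbols left out never exceeded 1 CPM.

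The study took mouse embryonic stem cells (ESC) labelled parental and ESC labelled Oct1_cKO, a conditional knockout of the transcription factor Oct1 (gene Pou2f1), through a mesodermal differentiation, and its title asks how Oct1 acts with Smad factors in that lineage choice. Cells of each genotype were profiled as ESC, at day 3 and at day 6 by single-cell RNA sequencing with the 10x Genomics 5′ kit, which tags the 5′ end of each captured transcript and counts unique molecular identifiers (UMIs). The differentiated cells of both genotypes shared 1 protocol, in which feeder-depleted ESC were plated on gelatin and given N2B27 medium with Bmp4 and then a DMEM-based medium with the Wnt agonist Rspo3 and the BMP receptor inhibitor LDN-193189. Each of the 6 groups is 1 library, so no difference below has a replicate check, no p-value is given, and each 95% interval covers counting error only. The labels give neither the deleted exons nor how the deletion was induced, nor the number of clones or the strain.

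Each nucleosome wraps DNA around a core of H2A, H2B, H3 and H4, and linker H1 binds where the DNA enters and leaves. The clustered genes supply these proteins while DNA is being copied: most are intronless, are transcribed mainly in S phase under the coactivator NPAT, and give mRNAs that end in a stem-loop held by SLBP instead of a poly(A) tail. Some clustered genes can also give polyadenylated mRNA, in particular in cells that have left the cycle. Oct1 enters this biology through H2B, since the octamer in H2B promoters is a textbook Oct1 binding sequence, and capture of RNA by oligo-dT favours polyadenylated forms of these transcripts.

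The promoter letters are shown first because the gene of Oct1 is the one targeted here. RefSeq promoter windows of build GRCm38.p6, each 300 bases long with 250 before the start and 50 after it, were matched for 32 of the 35 members and not for Hist1h2bc, Hist1h3f and Hist1h3a. Searched on both strands, the octamer ATTTGCAT occurred in 5 of 8 H2B windows and 5 of 10 H2A windows, and in 0 of 5 H1, 0 of 5 H3 and 0 of 4 H4 windows, against 1.74% of 32851 windows of all genes. In the 5 H2B windows it read in the direction of the gene and began between 90 bases (Hist1h2bb) and 25 bases (Hist1h2bm) before the start. In the 5 H2A windows it lay on the other strand and further off, from 119 bases (Hist3h2a) to 200 bases (Hist2h2ac) before the start. CCAAT occurred in 30 of 32 windows against 37.4% of all windows, TATAAA in 20 of 32 against 13.6%, and the H1 box AAACACA in 6 of 32 against 7.18%, with 4 of its 6 windows among the 5 of H1. The 4 motifs were searched one by one with overlaps kept, and a match describes letters, not binding.

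The 180 bases before the RefSeq start follow for 7 members that the results below turn on, read 5′ to 3′ along the gene. Capitals mark the octamer or its reverse complement in the first 5, nothing in Hist3h2ba, whose window has no octamer, and the H1 box in Hist1h1b.
Hist1h2bb (chr13:23746554-23746733, plus strand): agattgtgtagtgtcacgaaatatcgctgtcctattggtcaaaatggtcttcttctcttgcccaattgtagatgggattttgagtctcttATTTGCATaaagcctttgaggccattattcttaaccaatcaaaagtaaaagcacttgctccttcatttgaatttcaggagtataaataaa
Hist1h2bm (chr13:21721864-21722043, plus strand): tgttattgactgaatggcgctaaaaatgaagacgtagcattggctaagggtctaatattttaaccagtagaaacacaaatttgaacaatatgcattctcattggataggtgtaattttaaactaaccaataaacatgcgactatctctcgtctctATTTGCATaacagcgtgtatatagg
Hist2h2bb (chr3:96269520-96269699, plus strand): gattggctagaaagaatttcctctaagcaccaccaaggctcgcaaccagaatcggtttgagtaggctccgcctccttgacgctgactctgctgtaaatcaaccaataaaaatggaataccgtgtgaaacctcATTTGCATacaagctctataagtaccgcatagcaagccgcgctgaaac
Hist1h2ae (chr13:23571221-23571400, minus strand): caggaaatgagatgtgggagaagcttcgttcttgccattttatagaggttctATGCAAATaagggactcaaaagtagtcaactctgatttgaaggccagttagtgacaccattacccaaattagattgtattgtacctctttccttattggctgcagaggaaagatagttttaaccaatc
Hist3h2a (chr11:58954505-58954684, plus strand): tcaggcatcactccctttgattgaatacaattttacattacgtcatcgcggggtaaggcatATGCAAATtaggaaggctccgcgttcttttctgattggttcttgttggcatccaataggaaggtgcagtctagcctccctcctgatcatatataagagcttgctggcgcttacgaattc
Hist3h2ba (chr11:58948731-58948910, plus strand): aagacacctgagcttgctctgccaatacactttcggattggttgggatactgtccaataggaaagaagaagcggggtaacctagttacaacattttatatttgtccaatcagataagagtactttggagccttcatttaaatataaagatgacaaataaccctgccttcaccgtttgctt
Hist1h1b (chr13:21780626-21780805, minus strand): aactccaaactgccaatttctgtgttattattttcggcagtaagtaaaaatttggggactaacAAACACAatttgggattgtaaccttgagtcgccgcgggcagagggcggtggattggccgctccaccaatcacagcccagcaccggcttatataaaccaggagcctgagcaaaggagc

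As a check of the labels, Pou2f1 stood at 30.1 CPM in parental ESC, 28.3 at day 3 and 30.9 at day 6, and in the cKO at 21.5, 12.6 and 16.0 CPM. It was lower in the cKO at each stage and not absent, and a 5′ tag outside the deleted exons would still be counted. After filtering, 7096 cells remained of 11046 barcodes, with 530 to 1650 cells and 38935937 to 84128627 UMIs per library, and any 2 libraries shared at most 2 barcodes. Naive pluripotency markers summed to 1542 CPM in parental and 1629 in cKO ESC and to between 68.7 and 246.8 CPM later, and markers of somite and presomitic mesoderm reached only 220.5 CPM in parental and 128.3 in cKO cells at day 6. The 8 neural markers summed to 1148 CPM in parental and 43.1 in cKO cells at day 6, all 8 at least 2-fold lower in the cKO, and the 9 epithelial markers to 2066 and 5683 CPM, all 9 at least 2-fold higher. The parental ESC library stands apart, because 137 of its 1396 cells (9.81%) had UMIs of at least 3 of 9 fibroblast markers against 2 of 530 cKO ESC, and these markers summed to 843 CPM there against 26.4, with Col3a1 at 0 in the cKO. At day 6 such cells numbered 337 (21.8%) in the parental and 262 (15.9%) in the cKO library. In cells thinned to 10000 UMIs they were 147 of 1175 (12.5%) and 65 of 1092 (5.95%). From day 3 to day 6 the 6 such markers compared had a median log2 ratio of 4.67 in parental and 3.49 in cKO cells. All genes were at 0.22 and 0.26, and 1 of the 6 markers was at least 2-fold lower in each genotype. Whether the day 6 cells are of the same kind as those in ESC was not tested.

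All 35 members together made up 1317 CPM in parental and 1495 in cKO ESC, 1514 and 1497 at day 3, and 1774 and 1219 at day 6. The highest and the lowest of these sums were the day 6 libraries. Linker H1 contributed 615 and 515 CPM in ESC, 567 and 591 at day 3, and 611 and 388 at day 6, in each case parental before cKO. H2A gave 338 and 605 CPM, then 612 and 593, then 754 and 526. H1 was the most abundant type in parental ESC, and H2A was in the other 5 libraries. H2B gave 138 and 96.4 CPM, then 109.6 and 108, then 155 and 142. H3 gave 94.4 and 115, then 101 and 99.3, then 111 and 65.5. H4 gave 131 and 163, then 123 and 105, then 143 and 98.3.

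Within a type most UMIs came from a few copies, as the plot of levels by library shows. Hist1h1b, the H1.5 gene, led the linkers at 366 and 298 CPM in parental and cKO ESC, 314 and 339.6 at day 3, and 296 and 163 at day 6. Hist1h2ap led H2A at 139.7 and 331 CPM in ESC, 401 and 388 at day 3, and 494 and 379.6 at day 6. Both were above the sum of all H3 members in each library. Hist1h2bc was the highest H2B gene in parental ESC, in the cKO at day 3 and in both day 6 libraries, Hist1h4d the highest H4 gene in all 6 libraries, and Hist1h3e the highest H3 gene in the ESC libraries. Because the kit counts transcript ends, these levels were not divided by transcript length. Copies of 1 type resemble each other: 21 members had more than 50% of the 60-base words in their first 400 transcript bases in common with transcripts of other genes, so their counts are uncertain, and Hist1h2ap shared 91.2%. Hist1h1b, Hist1h1a, Hist1h1d and Hist1h3f shared none.

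**Figure D1:**
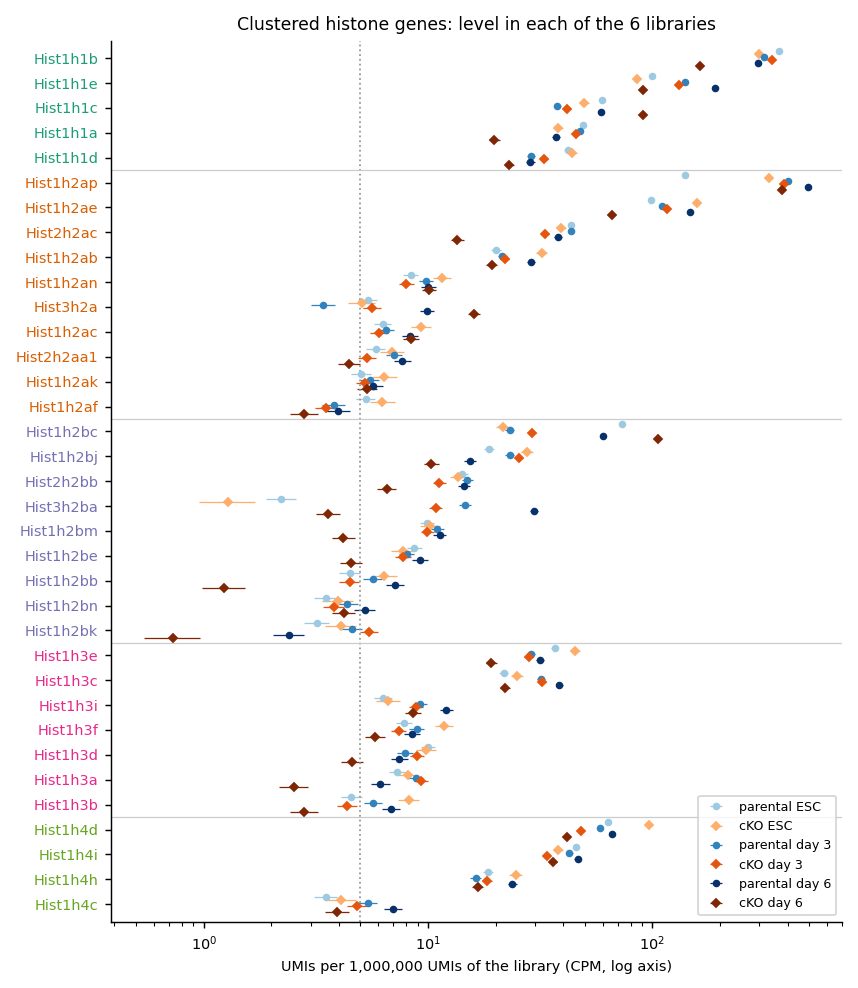
Level of each of the 35 members in each library, in UMIs per 1000000 UMIs on a log axis, with 95% counting intervals and with members grouped by histone type (H1, H2A, H2B, H3, H4 from top to bottom); circles are parental and diamonds cKO libraries, darker with stage, and the dotted line is the 5 CPM limit. Levels run from 0.732 CPM (Hist1h2bk in the cKO at day 6) to 494 CPM (Hist1h2ap in parental cells at day 6), and the cKO day 6 diamonds lie to the left for most members and to the right for Hist1h2bc, Hist3h2a and Hist1h1c.

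In ESC the members were close to even between genotypes by their median, with Hist1h2ap and Hist1h2bc standing out in opposite directions. Hist1h2ap, an H2A gene, was higher in the cKO by 1.24 on the log2 scale (95% interval 1.21 to 1.28). Hist1h2bc, an H2B gene, was at 73.3 CPM in parental ESC and 21.6 CPM in the knockout, giving a log2 value of -1.77 (-1.87 to -1.66). These were the only members at least 2-fold apart among the 31 with at least 5 CPM in either library, 1 higher and 1 lower, where among 9224 genes 1.40% passed 2-fold upward and 2.66% downward. The median log2 ratio of the 31 members was 0.20 (interval over genes -0.06 to 0.47) against -0.01 for all genes. Without cells with at least 3 fibroblast markers Hist1h2bc was at -0.29 and Hist1h2ap at 1.14. In parental ESC the 96 such cells with at least 10000 UMIs held Hist1h2bc at 719 CPM and the 1160 other cells of that depth at 25.3 CPM. Those 96 cells also held more Hist1h1c (141 against 53.2 CPM), Hist1h4h (57.5 against 15.5) and Hist3h2a (23.9 against 3.91), and less Hist1h1b (21.6 against 391) and Hist1h2ap (10.6 against 149.9). Their S phase genes summed to 448 CPM against 3945 in the other cells.

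By type, 8 of 10 H2A genes were above 0, that is higher in cKO than in parental ESC, with a median of 0.41. The interval of that median over genes, -0.09 to 0.68, spanned 0. Of all 9224 genes compared, 4455 were above 0 and 4769 below. Hist1h2ae stood at 98.8 CPM in parental ESC and 158 in the cKO, or 0.68 on the log2 scale (0.63 to 0.72), and Hist1h2ab at 20.04 and 32.1, also 0.68 (0.57 to 0.79). Among the H3 genes 6 of 7 were above 0, led by Hist1h3b at 4.56 and 8.19 CPM and a ratio of 0.85 (0.62 to 1.07). Of the linkers 4 of 5 were below 0, with Hist1h1a at 49.2 and 37.8 CPM and a ratio of -0.38 (-0.47 to -0.29), and Hist1h1b at -0.29 (-0.33 to -0.26). The 3 H4 genes compared were split, Hist1h4d at 0.60 (0.54 to 0.66) and Hist1h4i at -0.26 (-0.35 to -0.18). All of these were under 2-fold.

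At day 3 no member differed by 2-fold between genotypes. Among 33 members, 0 passed 2-fold upward and 0 downward, where 0.258% of 8917 genes passed upward and 0.594% downward, and the median was -0.06 (-0.16 to 0.07), as was that of all genes. The extremes were Hist3h2a, an H2A gene, at 3.42 CPM in parental and 5.65 in cKO cells, a log2 ratio of 0.72 (0.50 to 0.95), and Hist3h2ba, an H2B gene on the same chromosome, at 14.6 and 10.8 CPM, -0.43 (-0.56 to -0.31). Hist1h2bc was at 23.2 and 29.2 CPM, a ratio of 0.33 (0.25 to 0.42). Hist1h2ap, which stood apart in ESC, was at -0.05 (-0.07 to -0.03). The lower end also held the 3 members of chromosome 3, Hist2h2bb at -0.41 (-0.54 to -0.29), Hist2h2aa1 at -0.40 (-0.58 to -0.22) and Hist2h2ac at -0.38 (-0.46 to -0.31).

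At day 6 most members were lower in the cKO, and a few were higher. Of 33 members compared, 28 were below 0 and 5 above, where 5467 of 10065 genes were below 0. Of the members, 10 were at least 2-fold lower and 0 higher, where 6.76% of the 10065 genes were at least 2-fold lower and 5.63% higher. The median log2 ratio was -0.70 (-0.92 to -0.49) against -0.05 for all genes, was -0.0062 when the libraries were scaled to the summed level of the S phase genes described below, and was 0.0026, on the other side of 0, when the cKO cells were weighted to the parental spread of S phase shares. The scaling adds 0.70 to the ratio of every gene, and the weighting was computed for the members alone. Neither of these medians has a value of all genes beside it. Without cells with at least 3 fibroblast markers the median of the members was -0.95, with 15 members at least 2-fold lower. That cut left out 337 of 1546 parental and 262 of 1650 cKO cells at day 6, whose origin was not tested. The share of all genes in that setting was not computed. The 10 members that were at least 2-fold lower were the linker Hist1h1e, the H2A genes Hist1h2ae and Hist2h2ac, the H2B genes Hist2h2bb, Hist3h2ba, Hist1h2bm, Hist1h2be and Hist1h2bb, and the H3 genes Hist1h3a and Hist1h3b.

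Among linker genes at day 6, Hist1h1b was at 296 CPM in parental and 163 in cKO cells, a log2 ratio of -0.86 (-0.89 to -0.82). Hist1h1e, the H1.4 gene, was at 190.2 and 90.4 CPM, -1.07 (-1.12 to -1.03). Hist1h1a, the H1.1 gene, was at 37.3 and 19.8 CPM, -0.92 (-1.01 to -0.82). Hist1h1c, the H1.2 gene, went the other way, at 58.9 and 91.2 CPM and 0.63 (0.57 to 0.69). The log2 ratio of the H1 sums was -0.66, with 4 of 5 linkers below 0.

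Among H2A genes at day 6 the median was -0.38 over 9 members (interval over genes -1.15 to 0.02). Hist1h2ae was at 147 and 66.3 CPM, a log2 ratio of -1.15 (-1.20 to -1.10). Hist2h2ac was at 38.0 and 13.5 CPM, -1.49 (-1.60 to -1.39). The most abundant, Hist1h2ap, was at -0.38 (-0.40 to -0.36), and Hist1h2ac, at 8.34 and 8.44 CPM, was even at 0.02 (-0.15 to 0.18). Hist3h2a was higher in the cKO, at 9.90 and 16.1 CPM and 0.70 (0.56 to 0.84). The genes of this type therefore spanned both directions.

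The H2B genes had the lowest median at day 6, -1.09 over 8 members, and both extremes of the whole set. The interval of that median over genes, -3.05 to 0.81, is the full range of the 8 and covers the medians of the other types. Hist3h2ba was at 29.8 CPM in parental and 3.59 in cKO cells, a log2 ratio of -3.05 (-3.25 to -2.86). Hist1h2bb was at 7.13 and 1.23 CPM, -2.54 (-2.89 to -2.20). Hist1h2bm was at 11.3 and 4.19 CPM, -1.43 (-1.63 to -1.23). Hist1h2bc was the member most above 0, at 60.4 and 106 CPM, 0.81 (0.76 to 0.87). Since Hist1h2bc supplied most H2B UMIs in the cKO, the H2B sum differed by -0.13 alone while 7 of 8 H2B genes were below 0. Hist1h2bk was at 2.40 and 0.732 CPM and was not compared, being under 5 CPM in both.

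All 7 H3 genes and all 4 H4 genes were below 0 at day 6 by the values as counted. H3 ranged from -0.49 (Hist1h3i) to -1.28 (Hist1h3a and Hist1h3b), with Hist1h3b at 6.84 and 2.81 CPM. Hist1h3e was at 31.4 and 19.2 CPM, -0.71 (-0.81 to -0.61), and Hist1h3c at 38.5 and 22.1, -0.80 (-0.89 to -0.71). H4 ranged from -0.36 (Hist1h4i) to -0.83 (Hist1h4c), and Hist1h4d was at 66.2 and 41.5 CPM, -0.67 (-0.74 to -0.60). No H4 gene was 2-fold apart. Every H3 and H4 ratio had an interval below 0, although scaling to the S phase genes adds 0.70 to each ratio and puts Hist1h3i, Hist1h3f, Hist1h4d, Hist1h4i and Hist1h4h above 0.

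**Figure D2:**
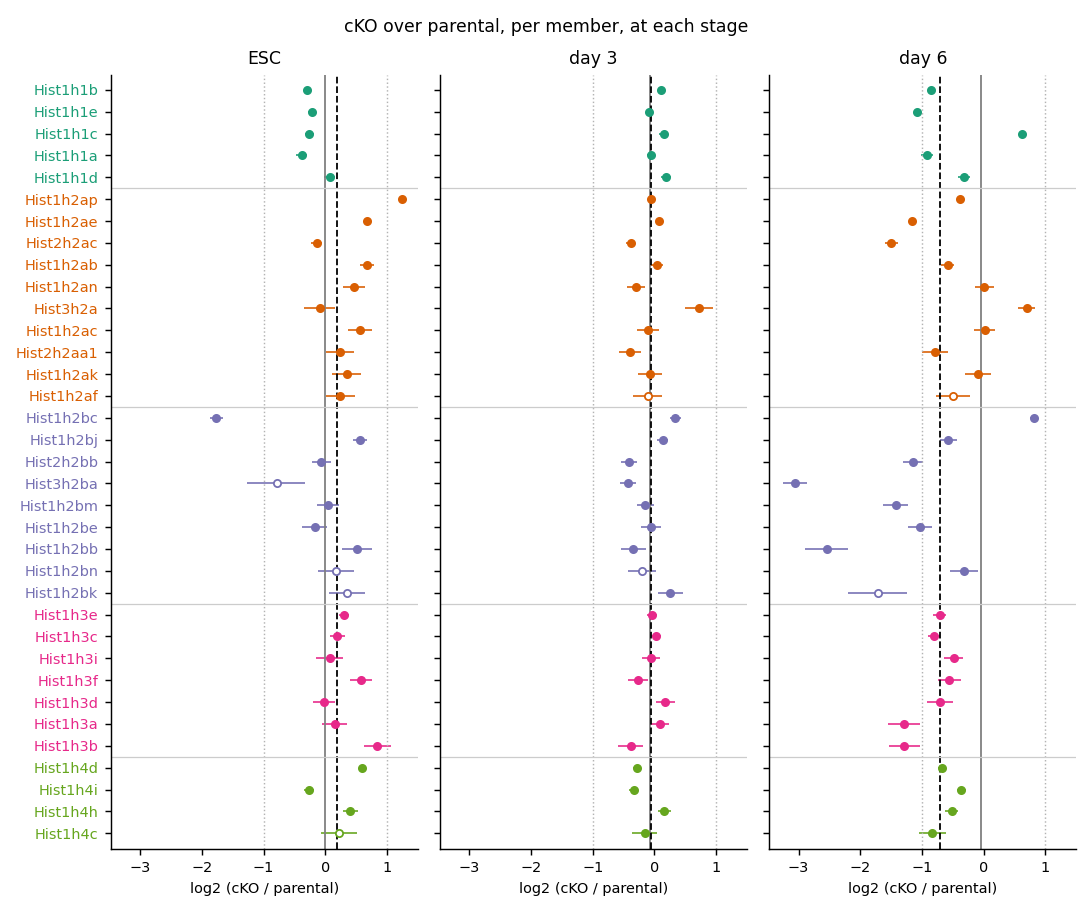
Log2 ratio of cKO to parental level for each member in ESC, at day 3 and at day 6, with 95% counting intervals; open symbols are members under 5 CPM in both libraries, the dashed line is the median of the members compared, the solid grey line the median of all genes and the dotted lines 2-fold. The dashed line is at 0.20, -0.06 and -0.70, and the day 6 median is -0.0062 when libraries are scaled to the S phase list and 0.0026 when cKO cells are weighted to the parental spread of S phase shares. The grey line is for all genes as counted.

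Other genes of the histone pathway were read from lists that, like the members, were chosen with earlier results of these data known. Slbp, whose protein holds the stem-loop, was at 147.6 and 130.04 CPM in parental and cKO cells at day 6, a log2 ratio of -0.18 (-0.22 to -0.14). Npat, the histone gene coactivator, was at 21.1 and 27.2 CPM, 0.37 (0.27 to 0.47). Casp8ap2 (FLASH), which serves histone transcription and 3′ end formation, was at 85.4 and 67.5 CPM, -0.34 (-0.40 to -0.28). Of 25 genes of histone transcription and mRNA processing compared at day 6, 1 was at least 2-fold lower and 0 higher, with a median of -0.20, where 6.76% of all genes were lower and 5.63% higher. That 1 was Ezh2, the Polycomb H3K27 methyltransferase, which the list holds although it is not itself a histone mRNA factor, at -1.16 (-1.20 to -1.12). In ESC 0 of 26 and at day 3 0 of 25 were 2-fold apart.

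Of 24 histone chaperone genes 3 passed 2-fold downward at day 6, against 6.76% of all genes, and 0 upward, and their median was -0.42. Asf1b, which carries new H3 and H4 to the fork, was at 55.9 and 18.4 CPM, a log2 ratio of -1.60 (-1.70 to -1.51). Hjurp, the CENP-A chaperone, was at -1.17 (-1.24 to -1.11), and Chaf1b, a subunit of CAF-1, at -1.09 (-1.16 to -1.02). Of 11 replacement histones, which are made outside S phase as well, 9 were below 0. Their median was -0.59, with an interval over genes of -0.92 to 0.57 that spanned 0. The 1 that was at least 2-fold lower, against the same 6.76%, was H1fx at 235.8 and 71.9 CPM, -1.71 (-1.76 to -1.67). H1f0, the linker of resting cells, was at 188.9 and 99.8 CPM, -0.92 (-0.96 to -0.88), and H2afx, which marks DNA breaks, was higher at 175.7 and 336.6 CPM, 0.94 (0.91 to 0.97). Chromosome 13 genes outside the pattern had a median of 0.08 (0.04 to 0.12) in ESC over 333 genes, -0.02 at day 3 over 315 and 0.00 at day 6 over 356.

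The genes of DNA replication and of mitosis were lower in the same comparison. Of 41 S phase genes, a list without histone genes, 40 were below 0 at day 6 with a median of -0.82, and 5 were at least 2-fold lower, against 6.76% of all genes. Uhrf1, which keeps DNA methylated at the fork, was at 93.2 and 42.7 CPM, -1.13 (-1.19 to -1.06). All 30 mitosis genes were below 0 with a median of -0.56, and 3 of them were at least 2-fold lower. Among all 10065 genes compared at day 6, 5467 were below 0. Cenpf, a kinetochore protein, was at 371.7 and 137.5 CPM, -1.44 (-1.47 to -1.40). In ESC the S phase median was -0.03 and the mitosis median 0.10, and at day 3 they were -0.09 and 0.03, with 0 genes of either list 2-fold apart. Malat1 and Neat1, nuclear noncoding RNAs, were higher in the cKO at day 6, Malat1 at 7561 and 16866 CPM and Neat1 at 14.5 and 76.6. The part of Malat1 and Neat1 in the histone ratios was not tested, and the S phase genes are taken up below.

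The stages were compared within each genotype; these comparisons share libraries with those above and with each other, so their values are given side by side. From ESC to day 3 the median was 0.10 (-0.11 to 0.27) over 33 members in parental and -0.24 (-0.43 to 0.16) over 33 in cKO cells, against 0.06 and -0.02 for all genes. Both intervals span 0, and the cKO median was 0.17 with equal weight per cell. In parental cells 2 members were at least 2-fold higher (Hist1h2ap and Hist3h2ba) and 1 lower (Hist1h2bc), where 7.56% of all genes were higher and 10.7% lower. In cKO cells 1 was higher (Hist3h2ba) and 1 lower (Hist1h4d), where 8.73% were higher and 13.1% lower. Neither lower call held in every setting. Without cells with at least 3 fibroblast markers Hist1h2bc was at 25.3 CPM in parental ESC and 17.8 at day 3, a log2 ratio of -0.51, and 0 members were lower. Hist1h4d, at 96.4 and 48.2 CPM, was just past 2-fold (interval -1.07 to -0.94), and in cKO cells 0 members were lower with all barcodes, TMM, DESeq2 factors, S phase scaling or no fibroblast-marker cells, and 6 under a stricter cell filter. Hist3h2ba was at 2.22 CPM in parental ESC and 14.6 at day 3, a log2 ratio of 2.72, and at 1.28 and 10.8 CPM in the cKO, 3.08. It was the member with the highest ratio in both genotypes.

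From day 3 to day 6 the median was 0.20 (0.03 to 0.36) over 33 members in parental cells, where all genes were at 0.22, and it was -0.041 with edgeR's TMM factors and -0.049 with DESeq2's size factors, which move every gene by -0.23 and -0.24. In cKO cells it was -0.52 (-0.81 to -0.13) over 30 members, where all genes were at 0.26, and 0.37 when scaled to the S phase list, which moves every gene by 0.89. In parental cells 3 members were at least 2-fold higher and 0 lower, where 18.3% of all genes were higher and 5.41% lower. In cKO cells 3 were higher and 8 lower, where 23.0% were higher and 7.72% lower. Hist1h2bc and Hist3h2a were higher by 1.38 and 1.53 in parental and by 1.86 and 1.51 in cKO cells. The remaining one differed by genotype: it was Hist3h2ba in parental cells, at 1.03, and Hist1h1c in the cKO, at 1.13, while Hist3h2ba was at -1.59 in the cKO.

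Histone levels were next set against S phase gene levels cell by cell. In each library the cells were ranked by the share of their UMIs on the 41 S phase genes and split into 5 equal parts. The summed level of the members in the lowest and the highest part was 909 and 1813 CPM in parental ESC, 495 and 2376 in cKO ESC, 923 and 2166 in parental day 3, 1021 and 2045 in cKO day 3, 545 and 3566 in parental day 6, and 496 and 2444 in cKO day 6. The log2 ratio of highest to lowest part was thus 0.997, 2.26, 1.23, 1.003, 2.71 and 2.30 in that order. Their sum was higher in the highest part in all 6 libraries. Cells of the lowest part also had fewer UMIs, with a median of 21981.5 against 38698 in parental day 6. Over the cells of a library, from 530 to 1650 cells that share its depth and composition, the Spearman correlation of the 2 shares was 0.31 to 0.55. The 10% of cells with the highest histone share held 18.6% to 27.1% of the histone UMIs and 6.89% to 9.18% of all UMIs.

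Most members followed this ranking and a few did not, as the plot by S phase part shows. In all 6 libraries 27 of the 35 members were higher in the highest part than in the lowest, and the median over members of their median log2 ratio was 1.67. No count by S phase part was made over all genes, so no share of all genes stands beside the counts in this paragraph. The 6 that were at least 2-fold higher in every library were Hist1h1b, Hist1h1a, Hist1h1e, Hist1h2af, Hist1h2ap and Hist2h2ac. Hist1h1b had the highest median in this order and stood at 25.5 CPM in the lowest and 675 CPM in the highest part of parental day 6 cells. The 4 that were at least 2-fold higher in none were Hist3h2a, Hist1h2bc, Hist3h2ba and Hist1h1c. Hist1h2bc was lower in the highest part in all 6 libraries, at 114 CPM in the lowest and 39.0 in the highest part of parental day 6 cells. The log2 ratio was -3.91 in parental ESC, where 116 of the 137 fibroblast-marker cells fell in the lowest part, and -0.68 to -1.62 elsewhere. Without fibroblast-marker cells, an alternative added after the data were seen, it was -0.78 in parental ESC, -0.38 in cKO ESC, 0.13 and -0.01 in parental and cKO day 3 with both intervals spanning 0, and -1.37 and -1.51 at day 6. Hist3h2a was lower in all 6 with and without those cells, at 27.9 and 3.58 CPM in the same parts of all parental day 6 cells. Without them 28 members were higher in the highest part in all 6 libraries, 5 at least 2-fold higher in every library and 3 in none, and the median was 1.38. Of these 4, Hist1h2bc, Hist3h2a and Hist1h1c were the members most above 0 at day 6, and Hist3h2ba was the lowest.

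**Figure D3:**
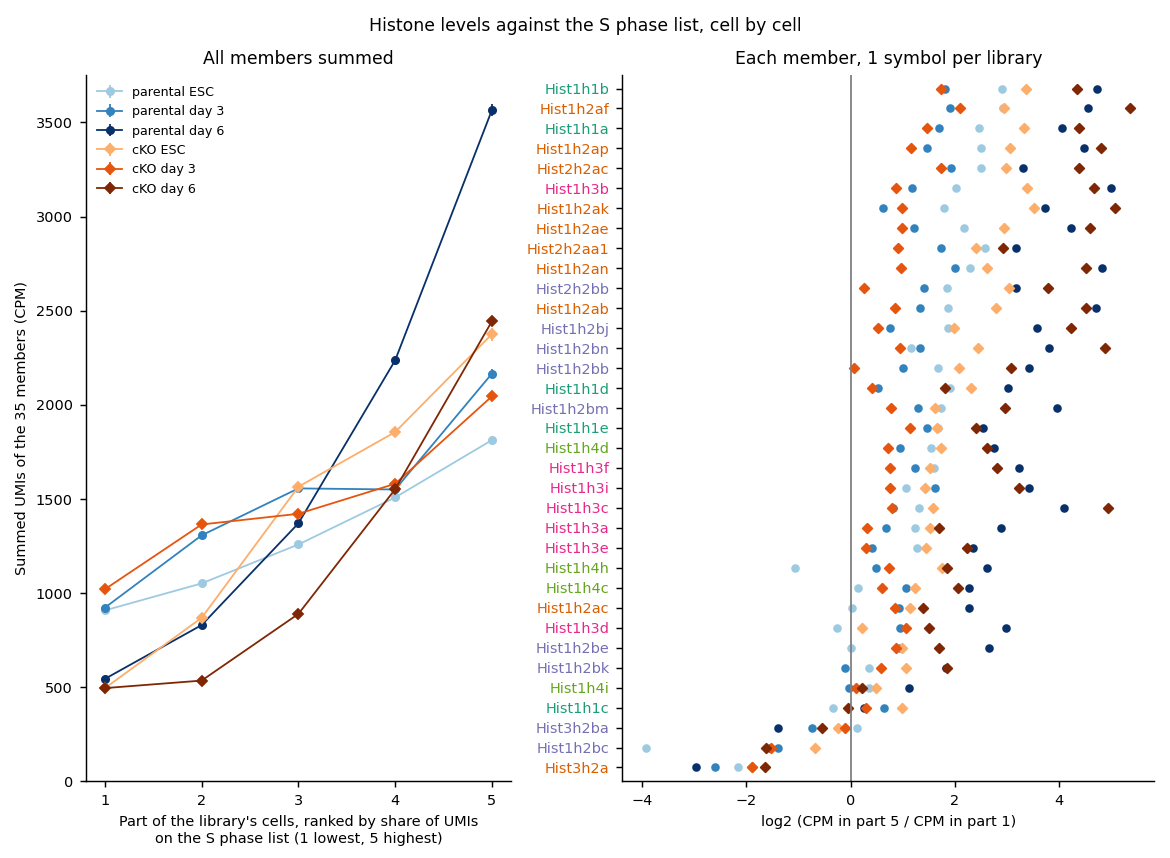
Left, summed level of the 35 members in CPM in 5 equal parts of each library's cells ranked by S phase share, with 95% counting intervals; right, log2 ratio of each member's level in the highest to the lowest part, 1 symbol per library. The left lines run from 495 to 1021 CPM in the lowest part to 1813 to 3566 CPM in the highest, and on the right, over all kept cells, Hist3h2a and Hist1h2bc lie below 0 in all 6 libraries.

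The libraries held different numbers of cells at each S phase share, most of all at day 6. When the 5 ranges were set by the parental day 6 cells, 45.8% of cKO cells fell in the lowest range and 5.70% in the highest. Within a range the histone sums were closer: in the lowest they were 546 CPM in parental and 539 in cKO cells, in the second 829 and 1081, in the third 1371 and 1830, in the fourth 2236 and 2369.9, and in the highest 3567 and 2908. The log2 ratios over the 5 ranges were -0.02, 0.38, 0.42, 0.08 and -0.29. The sums were thus higher in the cKO in 3 ranges, lower in the highest range, and within counting error in the lowest. With ranges set by the parental ESC, the ESC log2 ratios from the lowest to the highest range were -0.76, -0.21, 0.39, 0.27 and 0.41. The lowest of the 5 equal parts of parental ESC held 116 of the 137 fibroblast-marker cells. Hist1h2bc was at 359 CPM in that part, against 38.2 CPM in the lowest equal part of cKO ESC. The ratios by range were not recomputed without fibroblast-marker cells.

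With cKO cells weighted so that each range counted as in the parental library, an alternative chosen after the data were seen, the day 6 median over the same 33 members was 0.0026 instead of -0.70. Other genes were not weighted, so all genes have no value beside it. Of the 10 members at least 2-fold lower as counted, 2 were so after weighting. These were Hist3h2ba at -3.30 and Hist1h2bb at -1.68. Hist1h1b was at -0.03, Hist1h2ae at -0.26 and Hist2h2ac at -0.70. Hist1h1c was at 0.65, against 0.63 as counted, and Hist1h2bc at 0.35, against 0.81. In ESC the median was 0.20 both ways, and at day 3 it was 0.04 against -0.06. The S phase list itself differed between the genotypes at day 6, so the weighting sets cells of the same range of S phase shares side by side and does not give the share of cells in S phase. Levels of the list still differed within ranges, at 849 CPM in parental and 787 in cKO cells in the lowest range at day 6, 5819 and 5384 in the highest, and 1393 and 1939 in the lowest in ESC.

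**Figure D4:**
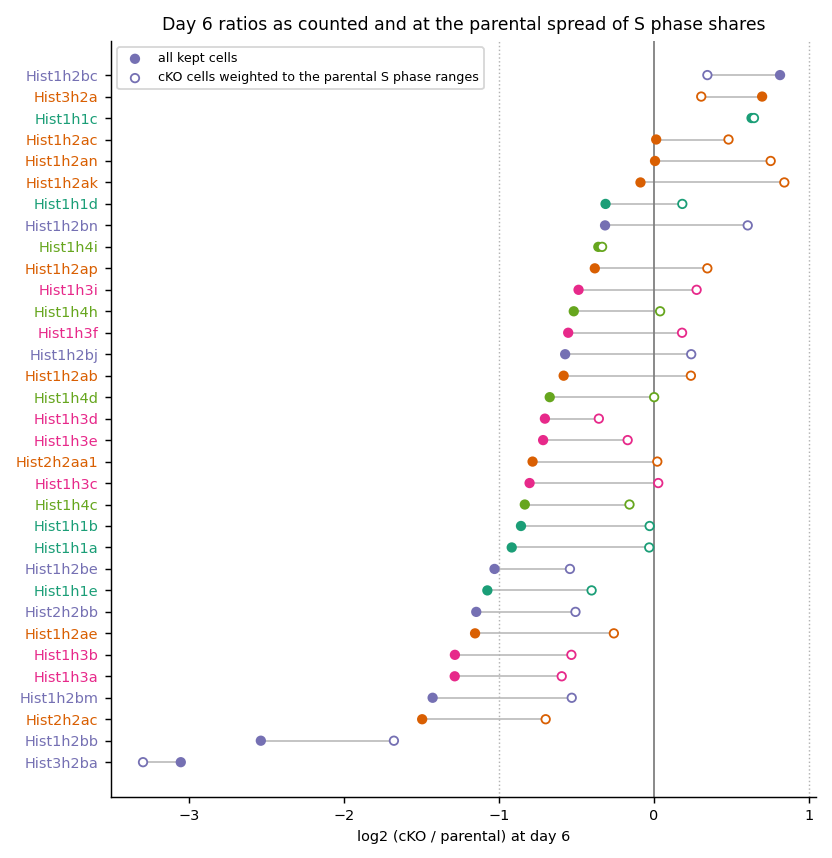
Log2 ratio of cKO to parental level at day 6 for the 33 members compared, over all kept cells (filled) and with cKO cells weighted to the parental spread of S phase shares (open). The median of the filled symbols is -0.70 and of the open ones 0.0026, and Hist3h2ba and Hist1h2bb are the members at least 2-fold lower in both.

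The members were also read in cells with and without markers of the cell types that differ at day 6, each cell with at least 10000 UMIs and thinned to that depth for the marker count and the sums. Cells with UMIs of at least 3 epithelial markers numbered 297 of 1175 in the parental (25.3%) and 858 of 1092 in the cKO library (78.6%), and those with at least 3 neural markers 494 and 13. The epithelial cut also passed 19.1% of parental and 27.3% of cKO ESC, and 26.7% and 36.5% at day 3. It therefore does not by itself define a cell type of day 6. In the parental library the histone sum was 2372 CPM in the neural-marker cells and 1427 in the rest, and 1139.7 CPM in the epithelial-marker cells and 2056 in the rest. In the cKO it was 1101 CPM in epithelial-marker cells and 1788 in the rest. Cells with epithelial markers thus had lower histone sums in both genotypes, and the counting intervals of the 2 genotypes overlapped there. Neural-marker cells of the parental library held more Hist1h2ap than the rest (697 against 385 CPM) and less Hist1h2bc (26.1 against 78.5). The S phase list was lower in epithelial-marker cells, at 2323 against 3627 CPM in the parental and 1787 against 2711 in the cKO library.

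Single members, counted over all UMIs of these cells, differed between them, as the plot of marker cells shows. Hist1h2bc was at 123 CPM in parental and 121 in cKO cells with epithelial markers, and at 32.5 and 32.7 in cells with fewer. The counting intervals of the 2 genotypes overlapped in both kinds of cell. Hist3h2ba was at 34.7 CPM in parental and 3.87 in cKO cells with epithelial markers, and at 27.1 and 2.11 in the others. Hist1h2bb was at 4.12 and 1.21 CPM in cells with epithelial markers, and at 8.41 and 1.38 in the others. Hist3h2ba and Hist1h2bb were thus lower in the cKO in both kinds of cell. Hist1h1c was higher in the cKO in both kinds, at 78.5 and 97.1 CPM with epithelial markers and 50.02 and 67.3 without. Hist1h1b was at 168 and 146 CPM in cells with epithelial markers and at 353 and 245 in the others. Hist3h2a was at 17.5 and 16.7 CPM in cells with epithelial markers, with overlapping intervals, and at 6.504 and 12.9 in the others.

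**Figure D5:**
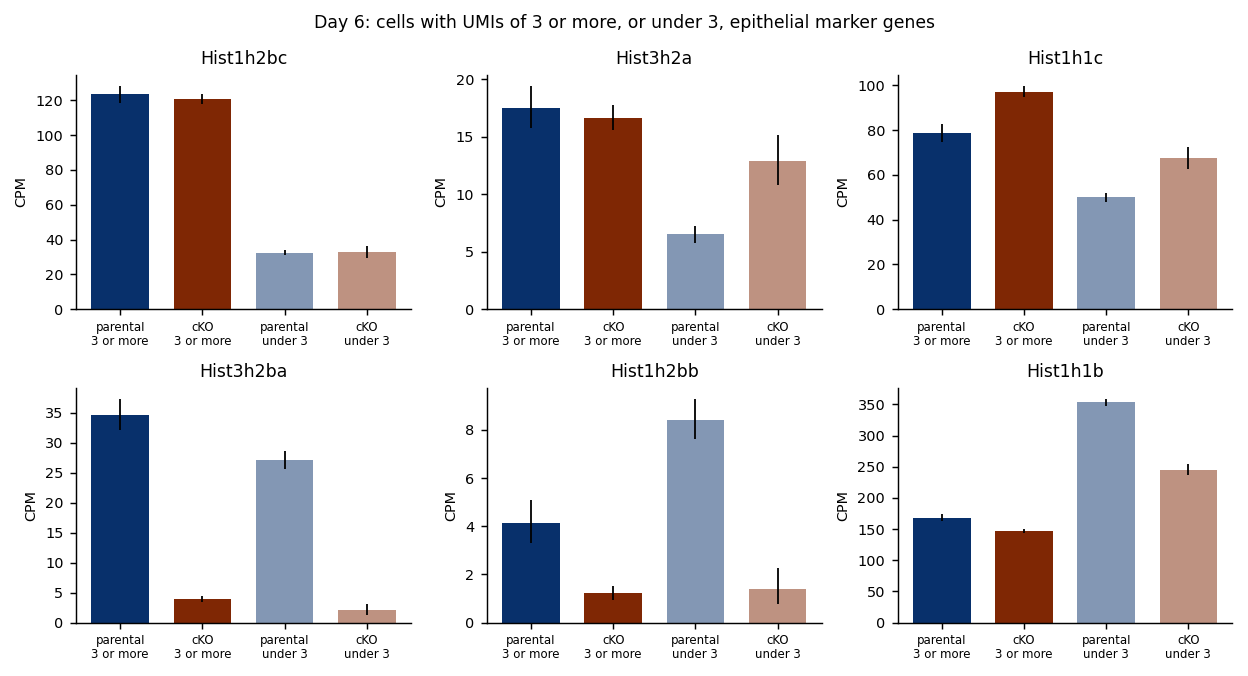
Level in CPM of 6 members at day 6 in parental and cKO cells with UMIs of at least 3 epithelial markers (dark bars) or fewer (light bars), with 95% counting intervals; each panel has its own axis from 0. Hist1h2bc is at 123 and 121 CPM in the 2 genotypes where epithelial markers are present and at 32.5 and 32.7 elsewhere, and Hist3h2ba is lower in the cKO in both kinds of cell, at 3.87 against 34.7 CPM and 2.11 against 27.1.

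The day 6 ratios were then read beside the promoter letters shown above. Among the H2A and H2B genes compared, the 9 with an octamer in their window had a median log2 ratio of -1.15, with 6 at least 2-fold lower, and the 7 without had a median of -0.38, with 1 lower, where 6.76% of all genes were lower. With cKO cells weighted to the parental S phase ranges the medians were -0.51 and 0.35. At day 3 they were -0.08 and -0.18, and in ESC 0.05 and 0.41. The types differed at day 6. With an octamer the median was -0.58 over 5 H2A genes (2 at least 2-fold lower) and -1.29 over 4 H2B genes (4 lower). Without one it was -0.23 over 4 H2A genes (0 lower) and -0.57 over 3 H2B genes (1 lower). After that weighting these medians were, in the same order, 0.24, -0.535, 0.55 and 0.24. Hist1h2bc has no matched window and is in neither group, so the H2B medians leave out its 0.81 as counted. The octamer of Hist1h2ac, at -130 from its start, lies between the starts of Hist1h2ac and Hist1h2bc. Those starts are 251 bases apart on opposite strands. The 14 H1, H3 and H4 members in RefSeq, none with an octamer, had a day 6 median of -0.71, or -0.03 after that weighting, and 2 of them were at least 2-fold lower. Single genes lay on both sides: Hist3h2ba, the lowest of all, holds no octamer in its window, and Hist3h2a, which was higher in the cKO, holds one. Hist1h2bb, Hist1h2bm and Hist2h2bb, whose octamers are printed above, were at -2.54, -1.43 and -1.15. These groups hold few genes that share sequence and counts, so the medians are a description.

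Some members overlap or face other genes, which bears on how their UMIs were assigned. Hist1h1e overlaps part of the annotated span of Hist1h2be on the same strand, and Hist3h2a starts at the same base as Trim17, which was at most 0.103 CPM. Hist1h2ac and Hist1h2bc start 251 bases apart on opposite strands, and they differed in level, Hist1h2ac at 6.05 to 9.30 CPM and Hist1h2bc at 21.6 to 106 CPM over the 6 libraries. Hist1h2ak and Hist1h2bn, 296 bases apart, stayed between 3.5 and 6.395 CPM in all libraries. Hist1h2ae faces Hist1h2bg at 176 bases, a symbol of the pattern that never reached 5 CPM, at 2.47 and 0.395 CPM in parental and cKO cells at day 6.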

How the data were processed

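The deposited files are matrices of raw UMI counts per gene and cell barcode, made by the authors with Cell Ranger 3.1.0 on mm10, per the file headers and the submitters' processing notes; other steps are not given in the sources used here. Barcodes with 1000 genes or more and no more than 10% of UMIs on mitochondrial genes were kept and summed per library, and counts were scaled to CPM, with exact Poisson intervals. Scrublet marked 30 of 7096 cells, too few to take as a working doublet call, so no cell was removed. Ratios have exact conditional binomial 95% intervals, with a floor of 3 counts for a library at 0. A gene entered a comparison if either library had 5 CPM or more, and was called at 2-fold. Medians have order-statistic intervals over genes. On simulated counts of the day 6 pair over 9662 genes, 100% of 4-fold changes passed 2-fold, as did 0% of 9462 unchanged genes. Those counts held Poisson error alone, so this checks the computation and cannot show how often libraries of 1 group would differ by 2-fold. Coordinates are GENCODE's and promoters RefSeq's. Named members are the 4 most abundant per type and the 4 highest and 4 lowest ratios per genotype comparison, and other lists give their 3 largest; further members were named after their values were seen. The members and lists were chosen with earlier results of these data known. Tools were Python 3.11.15, scipy 1.17.1, scanpy 1.11.5, edgeR 4.0.16 and DESeq2 1.42.0, the last 2 for scaling factors alone.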

Additional observations from a re-analysis of the deposited data

Results flagged for a closer look

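For 5 members the cKO to parental ratio lay on opposite sides of 0 at 2 stages, with both counting intervals clear of 0 and a difference of at least 1.5 on the log2 scale. With 1 library per group the difference itself was not tested. The share of all genes that meet this rule was not computed. Hist1h2bb went from 0.52 in ESC to -2.54 at day 6, a difference of -3.05. Hist1h3b went from 0.85 to -1.28, a difference of -2.13. Hist1h2ae went from 0.68 to -1.15, a difference of -1.83, and Hist1h2ap from 1.24 to -0.38, a difference of -1.62. Hist1h2bc went the other way, from -1.77 in ESC to 0.33 at day 3 and 0.81 at day 6, differences of 2.10 and 2.58. Its ESC ratio is -0.29 without the cells that have at least 3 fibroblast markers. For Hist1h2ap the day 6 ratio is 0.35 with cKO cells weighted to the parental S phase ranges, which puts both stages above 0.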

How the results depend on the processing

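Of the recomputed medians, counts and S phase ratios, 126 stayed within the interval or within 1.5 times the count, 29 moved and 4 whose interval lay clear of 0 crossed it (2 of those that moved, both with cells weighted equally, also crossed 0); of the recomputed ratios of named members, 790 stayed and 56 moved. The cause was not tested, and shares of all genes were not recomputed under the alternatives. In ESC the count of members 2-fold apart was 1 without fibroblast-marker cells. At day 3 it was 1 under a stricter cell filter (2000 genes or more, mitochondrial UMIs of 5% or less), and the median was 0.15 with cells weighted equally. At day 6 the median was -0.95 without fibroblast-marker cells, -0.0062 scaled to the S phase list (count 5: 3 higher, 2 lower) and 0.0026 with cKO cells weighted to the parental S phase ranges (count 2), and the count was 4 with at least 20 CPM. From ESC to day 3 in the cKO that filter gave a median of -0.49 and a count of 7, equal cell weights a median of 0.17, and each of all barcodes, TMM, DESeq2 factors, no fibroblast-marker cells, 20 CPM and S phase scaling a count of 1. From day 3 to day 6 the parental median was -0.041 with TMM, -0.049 with DESeq2 factors, 0.38 without fibroblast-marker cells and 0.51 with S phase scaling, and in the cKO S phase scaling gave a median of 0.37 and a count of 7, and 20 CPM a count of 6. With cells thinned to 10000 UMIs the log2 ratio of highest to lowest S phase part was 2.07 in cKO ESC, 1.10 and 0.93 in parental and cKO day 3, and 2.38 in cKO day 6. Without fibroblast-marker cells, added after the data were seen, it was 1.13 in parental ESC, 1.28 in parental day 3, and 2.83 and 2.21 in parental and cKO day 6. No paired analysis was possible because each group is 1 library with no numbered partner in another group; a fit of genotype with stage as a block over the 6 libraries was not run. Members near 5 CPM rest on the fewest UMIs and have the widest intervals.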

Other observations

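Replacement histones, which are made outside S phase as well, were read from day 3 to day 6 in each genotype, against a background over all genes of 18.3% past 2-fold upward and 5.41% downward in parental cells, and of 23.0% and 7.72% in cKO cells. In parental cells 5 of 11 were at least 2-fold higher and 0 lower, with a median log2 ratio of 0.49, and in cKO cells 1 of 11 was higher and 0 lower, with a median of 0.54. The intervals of these medians over genes, -0.04 to 1.58 and -0.49 to 0.84, both spanned 0. All genes were at 0.22 and 0.26. Over the same interval 18 of 41 S phase genes were at least 2-fold lower in cKO cells and 2 of 41 in parental cells. Of 24 histone chaperones 6 were at least 2-fold lower in cKO cells and 0 in parental cells. These 2 stage comparisons share no library, and the difference between them was not tested.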
